A study of Sus scrofa with 599 samples.

Results

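Retroperitoneal adipose tissue (RAD) was set against the upper layer of backfat (ULB), a subcutaneous fat, in pigs kept on a normal diet (the normal condition, NC). The comparison took 17 of the 236 RNA-seq samples of the series, 12 of RAD and 5 of ULB, and 17 of its 240 Hi-C samples, again 12 and 5, chosen by the tissue and diet in their labels. All were from 2-year-old female Bama pigs, a Chinese miniature breed, that never received the high-fat or restricted diets of the other groups. RNA-seq samples were whole pieces of tissue and hold all cell types of the depot, so that fewer cells of a type and less RNA per cell cannot be told apart. For Hi-C, the study fixed the tissue, centrifuged it and took the upper layer that held adipocytes. RNA-seq and Hi-C may thus not read the same cells. The study describes 12 pigs on the normal diet and took each of its fats from every carcass, so RAD and ULB samples share pigs. The labels number the samples without saying which pig gave which. The main fits thus treat the tissues as separate groups, without pairing by pig. The p-values here measure only the spread between samples. RNA-seq gave TPM, a level scaled for transcript length and library size that can be compared between genes, for protein-coding genes (PCGs). Hi-C, which counts contacts between stretches of chromatin, gave an A-B index in bins of 20 kb, a score without unit that is positive in the open compartment A and negative in the closed compartment B.

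Fat depots arise from different parts of the embryonic mesoderm and keep a record of that origin in the transcription factors they express. Homeobox genes of the HOX, IRX and EN families and zinc finger genes of the ZIC family mark positions along and around the body axis, and WT1 marks cells derived from the lining of the body cavities. Subcutaneous fat lies beneath the skin, while retroperitoneal fat surrounds the kidney and great vessels.

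The 17 RNA-seq libraries held 8229496 to 22939420 estimated counts on PCGs, and no pair of libraries was identical. They fell into 2 sets by the share of all TPM that PCGs held. In the low set, 6 RAD libraries (replicates 1, 2, 5, 7, 8 and 12) and 2 ULB libraries (5 and 9), the share was 79.5 to 84.8%, and in the other 6 RAD and 3 ULB libraries it was 92.4 to 96.8%. This split explained 21.4% of the variance of expression, against 13.1% for tissue, while in the A-B index tissue explained 22.2% and the split 4.99%. Adipocyte genes were high in every library. The summed TPM of 17 genes of mature adipocytes was 16400 to 39348 in RAD and 15308 to 21468 in ULB. None of the 12 kidney genes in the table was high enough across samples to be tested, a filter that cannot speak for single libraries. The highest kidney sum of a library was 14.6 TPM in RAD and 31.4 TPM in ULB, beside medians of 3.01 and 2.10 TPM. On chromosome 10, RAD samples 11 and 12 stood apart in the A-B index, with Pearson's r of 0.621 and 0.378 to the median of the other samples, and ULB samples 2, 5, 7 and 12 were at 0.765, 0.862, 0.890 and 0.768, whereas on the other chromosomes every sample was at 0.95 or above.

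Of 13749 PCGs tested with edgeR, 192 (1.40%) were differentially expressed genes (DEGs) higher in RAD and 402 (2.92%) were DEGs higher in ULB, where DEGs are genes past 1.5-fold with an adjusted p under 0.05, 4.32% in either direction. The median log2 fold change of RAD over ULB over all genes tested was 0.02. With the library set as a term in the fit, 225 (1.64%) and 415 genes (3.02%) were called, of which 565 were among the 594 DEGs. Within the high set 203 genes were called, 40 of them higher in RAD, and within the low set 144 were called, 42 of them higher in RAD. Of the 594 DEGs, 170 were still called within the high set and 121 within the low set. The direction was the same in all 583 DEGs tested within the high set and in 576 of 577 tested within the low set. The DEGs were chosen with these same libraries, so this agreement in direction is no independent support. Of the 594 DEGs, 277 were called whichever ULB sample was left out, and without ULB sample 7 the number of DEGs was 349. With the replicate number as a block in the fit, 228 of the 594 stayed called. IRX1, IRX5, DCN, BMP7, RBP4, CRABP2 and ACTG2, described below, were among those that lost their call. The TPM ranges of the tissues did not overlap for 184 genes (1.34%), 48 of them (0.349%) higher in RAD and 136 (0.989%) higher in ULB.

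**Figure D1:**
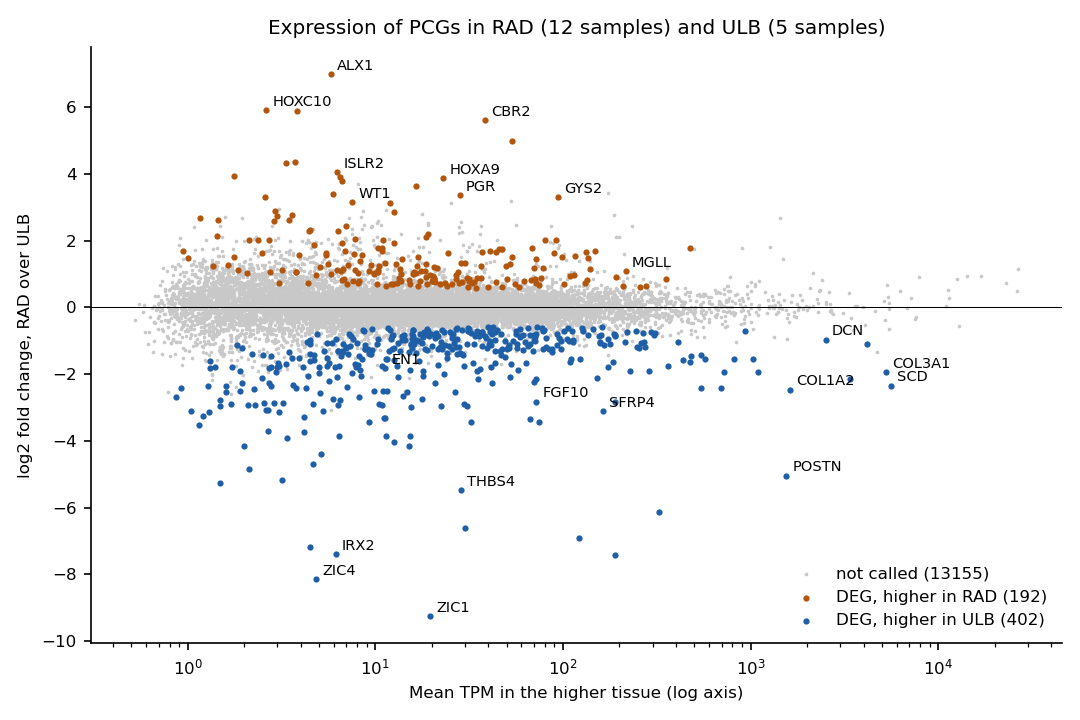
Log2 fold change of RAD over ULB (vertical axis) against the mean TPM in the tissue with the higher mean (horizontal log axis) for the 13749 PCGs tested, with DEGs in colour. The 402 DEGs higher in ULB reach further from 0 than the 192 higher in RAD, with ZIC1 at -9.26 and ALX1 at 7.0 as the ends.

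The widest separation between the depots was in developmental transcription factors. ZIC1, a zinc finger factor of dorsal mesoderm and neural tube, was read in every ULB sample and hardly in RAD. Its level in ULB samples 2, 5, 7, 9 and 12 was 22.7, 14.4, 22, 12.0 and 26.9 TPM, and in RAD the highest of 12 samples was at 0.0943 TPM. The groups did not overlap, 9 RAD samples being listed at 0, and the log2 fold change was -9.26 (SE 0.46, adjusted p = 2.8e-10). Over all RAD libraries only 3 estimated counts fell on ZIC1 against 1321 in ULB, which gives a ratio, scaled for library size, of 968 (95% exact interval 330 to 4.7e+03, counting error only, Clopper-Pearson). ZIC4, which starts in the same bin of 20 kb as ZIC1, had 4 counts in RAD and 872 in ULB, and 4.94, 2.32, 5.54, 4.09 and 7.22 TPM in the ULB samples. The log2 fold change of ZIC4 was -8.13 (SE 0.50, adjusted p = 5.7e-09). For genes this close to 0 in one tissue, the fitted fold depends on the count that edgeR adds to avoid a division by 0.

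The Iroquois genes IRX1, IRX2 and IRX5, homeobox factors that set regional identity, were also higher in ULB. IRX2 stood at 5.77, 5.98, 6.89, 5.28 and 6.88 TPM in ULB, and at 0 in 8 of 12 RAD samples with a highest value of 0.146 TPM, a log2 fold change of -7.39 (SE 0.53, adjusted p = 3.9e-08). IRX1 was between 8.75 and 14.7 TPM in ULB. In RAD its lowest, median and highest values were 0, 0.321 and 5.81 TPM, so that the ranges stayed apart although RAD samples 9 and 1, at 5.81 and 3.48 TPM, were well above the rest, and the log2 fold change was -3.30 (SE 0.79, adjusted p = 0.019). The same RAD samples led in IRX3, at 27.7 TPM in sample 9 and 10.8 TPM in sample 1, against a RAD median of 2.94 TPM and 15.1 ± 0.652 TPM (SD, n = 5) in ULB. Its log2 fold change of -1.42 (adjusted p = 0.22) did not pass. IRX5 was at 3.93, 5.82, 5.48, 2.96 and 5.21 TPM in ULB and did not reach beyond 2.26 TPM in RAD (log2 fold change -2.88, SE 0.52, adjusted p = 0.0021).

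Of 13 tested genes listed as subcutaneous patterning factors, 5 (38.5%, beside 2.92% of all genes) were DEGs higher in ULB. In RAD 1 (7.69%, beside 1.40%) was higher, and the median log2 fold change was -0.84. The fifth gene higher in ULB was EN1, an engrailed homeobox factor of dermis and dorsal fat. Its lowest, median and highest levels in RAD were 1.57, 3.19 and 4.18 TPM, and the ULB samples held 12.4, 8.36, 14.5, 7.31 and 13.7 TPM. All ULB samples lay above all RAD samples, and the log2 fold change was -1.82 (SE 0.22, adjusted p = 3.1e-05). TBX18, a T-box factor of mesoderm, went the other way, with 13.8 ± 4.30 TPM (SD, n = 12) in RAD and 5.27 ± 0.981 TPM (SD, n = 5) in ULB (log2 fold change 1.46, SE 0.18, adjusted p = 4.1e-05). Among 7 tested factors of visceral lineages, WT1 alone (14.3%, beside 1.40% of all genes) was a DEG. The log2 fold changes of GATA6, NR2F1, FOXF1, TBX3, TBX5 and TBX2 were between 0.23 and 0.69 and did not pass. WT1 had 2.55, 8.80 and 11.2 TPM as its lowest, median and highest levels in RAD and 0.238, 0.963, 0.0975, 2.38 and 0.627 TPM in ULB, where sample 9 came close to the RAD range. The log2 fold change of WT1 was 3.15 (SE 0.57, adjusted p = 0.0021), 4.45 within the high library set and 2.25 within the low set. TCF21, another visceral factor, was too low to be tested.

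ALX1, a paired-class homeobox gene best known from craniofacial mesenchyme, had the highest fold change toward RAD among the named genes. RAD samples held 1.6, 5.70 and 11.4 TPM (lowest, median and highest), and the ULB samples 0, 0.194, 0, 0.0703 and 0.0374 TPM. Every RAD sample was above every ULB sample, with 5 estimated counts in all ULB libraries against 1307 in RAD, a ratio, scaled for library size, of 119 (95% exact interval 50.8 to 367). The log2 fold change was 7.0 (SE 0.70, adjusted p = 3.9e-06).

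HOX genes, which mark position along the body axis, differed by cluster and by place in the cluster. HOXA9 was at 15.1, 20.6 and 35.8 TPM in RAD (lowest, median and highest) and at 0.389, 0.806, 0.645, 1.77 and 4.71 TPM in the ULB samples, with no overlap and a log2 fold change of 3.88 (SE 0.46, adjusted p = 2.9e-05). HOXA10 gave 3.92 (SE 0.53, adjusted p = 9.7e-05), also without overlap. The other 4 HOXA genes tested, HOXA2, HOXA3, HOXA5 and HOXA7, had values from 0.29 to 1.10 and were not called. The calls thus made 2 of 6 HOXA genes (33.3%, beside 1.40% of all genes). HOXC10 was read in all 12 RAD samples, at 0.213, 2.51 and 4.71 TPM, and in ULB it was at 0 in 4 of 5 samples and at 0.194 TPM in sample 9. That made 509 estimated counts in RAD and 3 in ULB, a ratio, scaled for library size, of 77.2 (95% exact interval 26.3 to 376), while HOXC4, HOXC5, HOXC6, HOXC8 and HOXC9 had log2 fold changes from -0.78 to 1.00 that did not pass. In the HOXD cluster 2 of 5 tested genes were called, both higher in ULB, and the 2 fell to 0 without ULB sample 12 and to 1 without ULB sample 2, 7 or 9. HOXD10 was higher in ULB (log2 fold change -3.14, SE 0.80, adjusted p = 0.028), as was HOXD9 (log2 fold change -1.23, SE 0.29, adjusted p = 0.016), while HOXD3, HOXD4 and HOXD8, at 0.78, 0.53 and -0.32, were not called. HOXB6 and HOXB7 were higher in RAD, with 1.6 (SE 0.29, adjusted p = 0.002) and 0.88 (SE 0.21, adjusted p = 0.019). The expression of HOXD9 missed the limit without ULB sample 12 (adjusted p = 0.083), the expression of HOXB7 missed it without ULB sample 2, 5 or 7 (0.056, 0.053 and 0.068), and HOXD10, like KRT7 and CHIA described further on, passed the filter on low genes in only 1 of the 5 fits that left out a ULB sample.

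**Figure D2:**
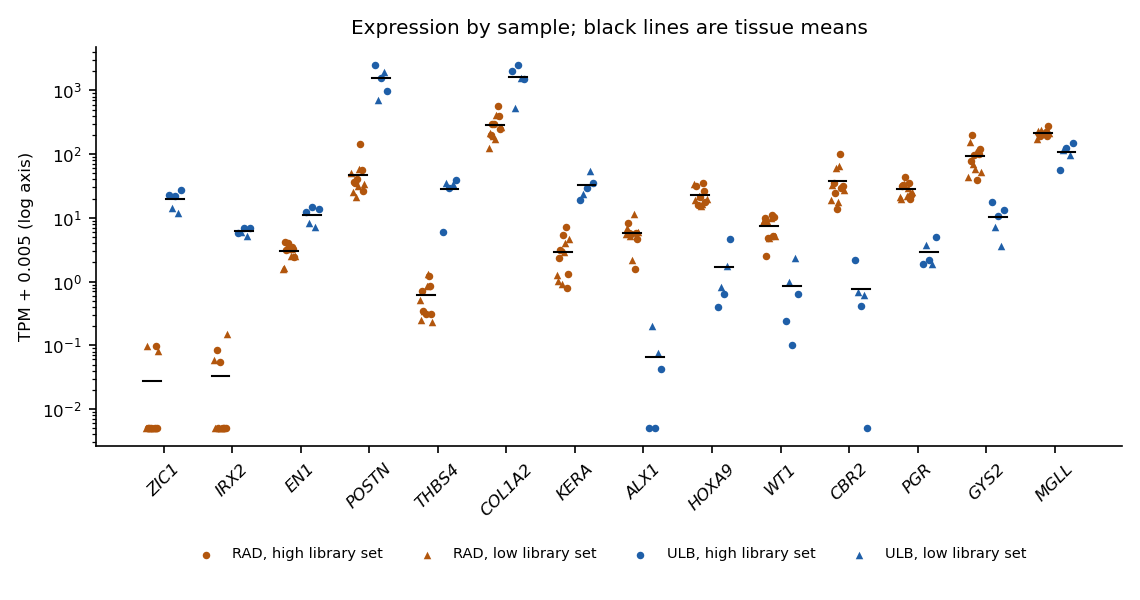
TPM plus a small constant that keeps 0 on the axis (log axis) in each of the 12 RAD and 5 ULB samples for 14 genes, with circles for the high and triangles for the low library set and black lines for tissue means. Points at the bottom are samples listed at 0. Of the 14 genes, the tissues overlap in COL1A2 alone.

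The promoters of ZIC1 and IRX2 are shown because their genes were on in one depot and near 0 in the other. They are the 250 bases before the RefSeq gene start in Sscrofa11.1, read 5′ to 3′ on the gene's strand, with capitals for motifs found on either strand. The motifs searched were the TATA box, spelled TATAAA. The other two were the box named CCAAT, with these letters, and the GC box spelled GGGCGG, and no matches overlapped. The ZIC1 sequence lies at chr13:87740519-87740768 and the IRX2 sequence at chr16:78305619-78305868, both on the plus strand.
ZIC1: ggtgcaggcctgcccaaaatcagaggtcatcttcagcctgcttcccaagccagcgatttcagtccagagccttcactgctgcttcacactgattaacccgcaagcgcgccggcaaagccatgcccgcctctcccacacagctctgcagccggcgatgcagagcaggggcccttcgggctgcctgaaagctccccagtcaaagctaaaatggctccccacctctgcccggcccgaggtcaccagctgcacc
IRX2: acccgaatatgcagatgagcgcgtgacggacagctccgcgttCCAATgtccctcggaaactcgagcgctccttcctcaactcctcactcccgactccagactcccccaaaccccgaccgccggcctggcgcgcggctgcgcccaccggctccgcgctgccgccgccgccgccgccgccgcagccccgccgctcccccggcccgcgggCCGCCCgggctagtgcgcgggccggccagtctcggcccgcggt
The window of ZIC1 held none of the 3 motifs and 11 CpG dinucleotides, and that of IRX2 held CCAAT and GGGCGG with 40 CpG. Over the promoters of 13517 genes, 7.99% held TATAAA, 31.8% CCAAT and 53.1% GGGCGG. The shares were 11.9%, 35.8% and 47.8% for 159 DEGs higher in RAD, and 7.89%, 34.8% and 53.5% for 342 DEGs higher in ULB.

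Genes of the fibrillar extracellular matrix held the most DEGs on the ULB side among the 46 gene lists used here, which cover a part of the 402 DEGs on that side. Lists and members were chosen with earlier results of these data known, so the shares describe the lists and are no test of them. Of 24 genes tested, 15 (62.5%, beside 2.92% of all genes) were higher in ULB and 0 in RAD, and the median over the list was -1.13 on the log2 scale. The 15 were POSTN, COL12A1, COL1A2, COL3A1, COL1A1, LOX, COL6A6, COL6A1, COL6A3, COL6A2, ELN, SPARC, DCN, COL6A5 and COL14A1. COL5A1, COL5A2, COL5A3, FN1, FMOD, LUM, THBS1, TNC and FBN1 were not called. With the library set as a term, 16 genes passed.

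POSTN encodes periostin, a matrix protein that binds collagen and is typical of tissue under mechanical load. The ULB samples held 2489, 708, 1593, 1942 and 979 TPM, and RAD ran from 21.6 through a median of 36.2 to 143 TPM, with sample 9 as the highest. No ULB sample came near the RAD range, and the log2 fold change was -5.04 (SE 0.35, adjusted p = 2.5e-08). COL1A2, a chain of type I collagen, had 2017, 531, 2464, 1589 and 1488 TPM in ULB and 125, 258 and 578 TPM in RAD (lowest, median and highest), so that ULB sample 5 fell within the RAD range. Its log2 fold change was -2.46 (SE 0.28, adjusted p = 2e-05), and -2.59 and -2.16 within the high and low library sets. COL1A1, the other chain of type I collagen, had a like value of -1.94 (SE 0.50, adjusted p = 0.03). COL3A1 was at 1301 ± 555 TPM (SD, n = 12) in RAD and 5283 ± 1581 TPM (SD, n = 5) in ULB, and COL12A1, a collagen that decorates fibrils, at 25.0 ± 9.36 TPM (SD, n = 12) and 190.2 ± 33 TPM (SD, n = 5). Neither overlapped between tissues, and the log2 fold changes were -1.94 (SE 0.27, adjusted p = 0.00017) and -2.85 (SE 0.22, adjusted p = 9.2e-08). DCN, a small proteoglycan on collagen fibrils, differed less, with 690.2, 1190.1 and 1960.4 TPM in RAD against 2851, 2165, 2359, 2558 and 2619 TPM in ULB (log2 fold change -0.96, SE 0.21, adjusted p = 0.011). ELN encodes elastin (log2 fold change -1.31, SE 0.27, adjusted p = 0.0062).

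Matrix genes outside the list were called on both sides. GPC6, a glypican of the cell surface, was higher in RAD (log2 fold change 2.21, SE 0.38, adjusted p = 0.0013). KERA, encoding keratocan, a relative of decorin, was at 0.785, 2.64 and 7.13 TPM in RAD (lowest, median and highest) and at 19, 23.3, 29.7, 53.8 and 35.8 TPM in ULB, without overlap (log2 fold change -3.42, SE 0.42, adjusted p = 4.3e-05). THBS4, a thrombospondin of tendon and muscle, was at 5.96, 35.6, 29.1, 33.5 and 38.7 TPM in ULB, where sample 2 was lower than the rest yet above the RAD maximum of 1.32 TPM (log2 fold change -5.48, SE 0.40, adjusted p = 5.3e-08). FBLN7, a fibulin, gave -2.97 (SE 0.39, adjusted p = 7.3e-05). Of 14 metalloproteinases and inhibitors tested, 5 (35.7%, beside 2.92% of all genes) were higher in ULB and 0 in RAD, with a median of -0.76. MMP2, a gelatinase, was at 175 ± 64.5 TPM (SD, n = 12) in RAD and 723 ± 275 TPM (SD, n = 5) in ULB (log2 fold change -1.94, SE 0.29, adjusted p = 0.00026), MMP14, which activates it, gave -1.07 (SE 0.14, adjusted p = 5.5e-05), and MMP16 gave -1.67 (SE 0.27, adjusted p = 0.00083). MMP27 and MMP23B were the other 2. Of 17 basement membrane genes, COL4A5 and COL18A1 were called (11.8%, beside 2.92% of all genes), both higher in ULB. The expression of COL4A5 missed the limit without ULB sample 12 (adjusted p = 0.11), and the expression of COL18A1 without ULB sample 2, 5, 7 or 12 (0.051, 0.059, 0.20 and 0.11).

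Of 16 genes of mature fat cells tested, LEP alone (6.25%, beside 4.32% of all genes) was a DEG, and the median log2 fold change was 0.42. Leptin (LEP), the hormone that reports fat mass, was at 40.2, 129 and 187 TPM in RAD (lowest, median and highest) and at 249, 293, 458, 207 and 141 TPM in ULB. The ranges overlapped through ULB sample 12, and the log2 fold change was -1.04 (SE 0.26, adjusted p = 0.025). The expression of LEP missed the limit without ULB sample 5 (adjusted p = 0.058) or 7 (0.13). PPARG, the master regulator of adipogenesis, was at 286 ± 97.2 TPM (SD, n = 12) and 225 ± 66.8 TPM (SD, n = 5) in RAD and ULB, with a log2 fold change of 0.40 (adjusted p = 0.31). Adiponectin (ADIPOQ) gave 0.67 (adjusted p = 0.23), FABP4, the fatty acid binding protein of adipocytes, gave 0.54 (adjusted p = 0.22), and LPL, the lipase that takes up blood lipids, gave 0.24 (adjusted p = 0.57).

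In lipid metabolism, SCD, the desaturase that makes monounsaturated fatty acids, stood out among 19 genes of de novo lipogenesis. Its level in RAD was 79.5, 932 and 2159.8 TPM (lowest, median and highest) and in ULB 4656, 3305, 14177, 833 and 4962 TPM, with ULB sample 9 inside the RAD range and sample 7 far above the others. The log2 fold change was -2.34 (SE 0.59, adjusted p = 0.024), -3.15 within the high and -0.78 within the low library set, and the expression of SCD missed the limit without ULB sample 7 (adjusted p = 0.17). PNPLA3, a lipase family member of liver and fat, was the other DEG of the list (10.5% called, beside 2.92% of all genes). It was also higher in ULB (log2 fold change -2.23, SE 0.42, adjusted p = 0.0027). FASN, the fatty acid synthase, gave 0.22 (adjusted p = 0.84), and THRSP, a lipogenic nuclear protein, gave 1.44 (adjusted p = 0.1) in the opposite direction. MGLL, which splits monoglycerides in the last step of lipolysis, was at 176, 216 and 277 TPM in RAD and 57.2, 118, 125, 97.7 and 149 TPM in ULB, all RAD samples being above all ULB samples. Its log2 fold change of 1.10 (SE 0.18, adjusted p = 0.00075) was the only call among 12 lipolysis genes (8.33%, beside 1.40% of all genes). GYS2, the glycogen synthase best known from liver, was also higher in RAD in every sample, with 94.3 ± 48.1 TPM (SD, n = 12) against 10.4 ± 5.35 TPM (SD, n = 5) (log2 fold change 3.30, SE 0.44, adjusted p = 8.4e-05). No gene was called among 22 of triglyceride synthesis and fatty acid uptake, 20 of fatty acid oxidation, 18 of insulin signalling and 7 glucose transporters. The 12 mitochondria-encoded genes tested had a median log2 fold change of 0.78 and no call. Their summed share of TPM ran from 1.98 to 29.5% in RAD and from 1.89 to 17% in ULB.

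One steroid hormone gene and several retinoid genes were called. PGR, the progesterone receptor, was at 19.9, 27.2 and 43.4 TPM in RAD and at 1.91, 3.71, 2.16, 1.89 and 5.05 TPM in ULB. The ranges were far apart, with a log2 fold change of 3.38 (SE 0.26, adjusted p = 8.4e-08). PGR was the only call among 12 steroid hormone genes (8.33%, beside 1.40% of all genes), ESR1, the estrogen receptor, giving -0.72 without a call. RXRG, a partner receptor of retinoid and thyroid receptors, was at 16.5 ± 10.8 TPM (SD, n = 12) and 1.43 ± 0.806 TPM (SD, n = 5) (log2 fold change 3.65, SE 0.48, adjusted p = 8.2e-05). Of 15 retinoic acid genes tested, 4 (26.7%, beside 1.40% of all genes) were DEGs higher in RAD and 2 (13.3%, beside 2.92%) higher in ULB. RBP4, which carries retinol in blood, was higher in RAD (log2 fold change 1.68, SE 0.33, adjusted p = 0.004), and so was ALDH1A3, which makes retinoic acid (log2 fold change 1.3, SE 0.29, adjusted p = 0.0097). CRABP2, which binds retinoic acid in the cell, was higher in ULB (log2 fold change -2.91, SE 0.63, adjusted p = 0.0091). CBR2, a carbonyl reductase, was at 14, 30.8 and 98.7 TPM in RAD (lowest, median and highest) and at most 2.15 TPM in ULB (log2 fold change 5.62, SE 0.69, adjusted p = 4.4e-05).

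Signalling genes of development were called on both sides. WNT5B, a ligand of noncanonical WNT signalling, was at 2.78, 9.06 and 34.8 TPM in RAD and 0.779, 1.19, 1.43, 1.41 and 2.48 TPM in ULB, without overlap (log2 fold change 3.13, SE 0.52, adjusted p = 0.00086). SFRP4, which binds WNT ligands, was higher in ULB, at 18.2 ± 11.8 TPM (SD, n = 12) against 164 ± 33.7 TPM (SD, n = 5), also without overlap (log2 fold change -3.10, SE 0.33, adjusted p = 9.3e-06). Of 17 WNT genes, 3 (17.6%, beside 1.40% of all genes) were higher in RAD and 1 (5.88%, beside 2.92%) in ULB. The 3 fell to 1 without ULB sample 2 or 12. In the FGF family 3 of 11 genes (27.3%, beside 1.40% of all genes) were higher in RAD and 2 (18.2%, beside 2.92%) in ULB. The 3 fell to 1 without ULB sample 5, 7 or 12. FGF10, a mesenchymal growth factor, was at 3.29, 8.44 and 27 TPM in RAD and 125, 77.1, 34.3, 43.5 and 79.3 TPM in ULB, and its receptor FGFR2 was at 2.07 ± 1.13 TPM (SD, n = 12) and 14 ± 2.08 TPM (SD, n = 5). Both separated the tissues, with log2 fold changes of -2.82 (SE 0.37, adjusted p = 7.3e-05) and -2.64 (SE 0.34, adjusted p = 7e-05). KLB, a coreceptor for FGF19 and FGF21, was higher in RAD (log2 fold change 1.55, SE 0.28, adjusted p = 0.0017). FST, the activin antagonist follistatin, was higher in ULB (log2 fold change -1.67, SE 0.32, adjusted p = 0.0034), and BMP7 higher in RAD (log2 fold change 2.02, SE 0.41, adjusted p = 0.0057). Of 14 progenitor genes, 2 (14.3%, beside 1.40% of all genes) were higher in RAD and 1 (7.14%, beside 2.92%) in ULB. Those higher in RAD were BMP7 and PI16, a marker of universal fibroblasts (log2 fold change of PI16 1.63, SE 0.33, adjusted p = 0.0049). CD34 was higher in ULB (log2 fold change -0.89, SE 0.19, adjusted p = 0.01). IGFBP5, which binds IGF, was higher in ULB (log2 fold change -1.90, SE 0.38, adjusted p = 0.0044).

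**Figure D3:**
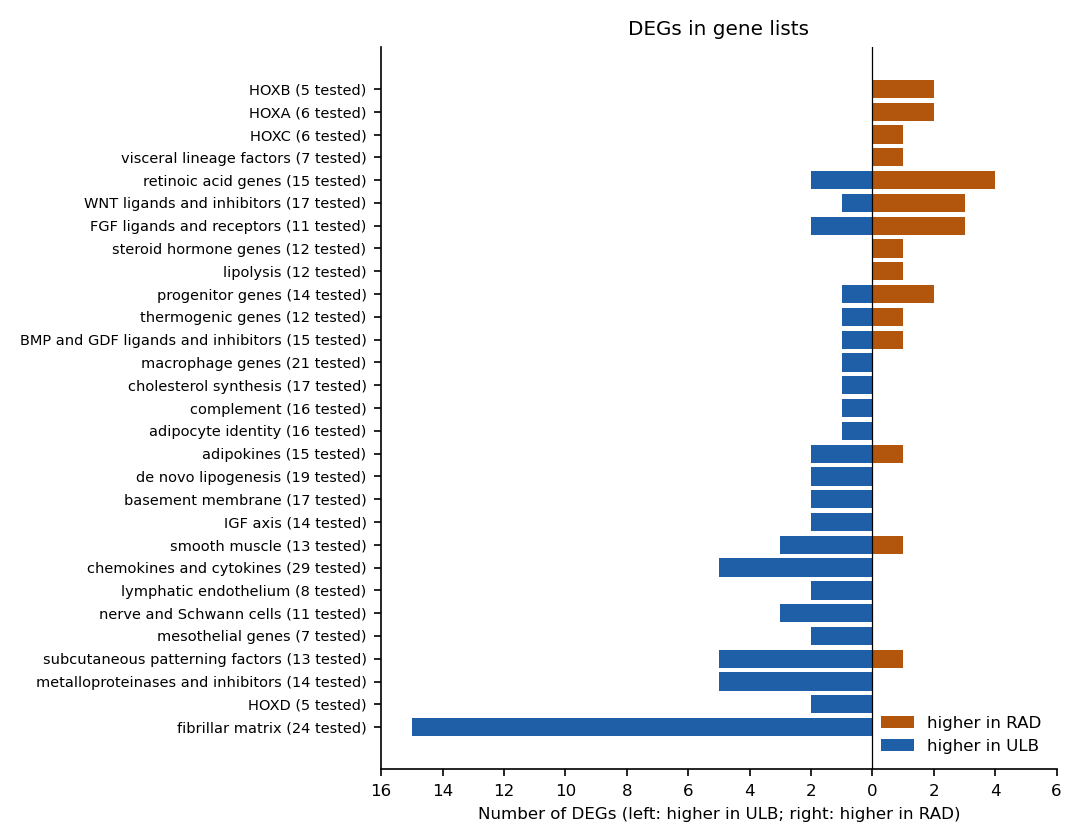
Number of DEGs higher in ULB (left, blue) and in RAD (right, orange) in each gene list with at least 1 DEG; the number tested is beside each name. Fibrillar matrix, with 15 of 24 genes higher in ULB, is the longest bar. Lists and members were chosen with earlier results of these data known.

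Of 29 chemokines and cytokines, 5 (17.2%, beside 2.92% of all genes) were higher in ULB and 0 in RAD, with a median of -0.43. The 5 fell to 4, 2, 1 and 3 without ULB sample 5, 7, 9 or 12. CXCL14, a chemokine of epithelium and fibroblasts, had the largest fold change of the 5 (log2 fold change -1.39, SE 0.18, adjusted p = 5.6e-05). CXCL12, which retains blood progenitors in tissue, was higher in ULB (log2 fold change -0.84, SE 0.20, adjusted p = 0.021), but the expression of CXCL12 missed the limit without ULB sample 7 (adjusted p = 0.073), 9 (0.070) or 12 (0.057). Of 21 macrophage genes, CD9 alone (4.76%, beside 2.92% of all genes) was called higher in ULB (log2 fold change -1.77, SE 0.23, adjusted p = 7.1e-05). No call was made among 14 T and B cell genes, 6 MHC class II genes, 20 interferon-stimulated genes and 18 immediate early genes.

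Markers of other cell types moved with the depot in part. MMRN1, a protein of lymphatic endothelium, was at 1.65, 3.82 and 9.56 TPM in RAD and 39.2, 22.2, 23.5, 15.4 and 32 TPM in ULB, without overlap (log2 fold change -2.53, SE 0.32, adjusted p = 5.8e-05). The summed TPM of the 8 lymphatic genes was 26.1 to 125 in RAD and 152 to 297 in ULB. Of the 8, 2 (25.0%, beside 2.92% of all genes) were DEGs higher in ULB, while PROX1, which defines the lineage, gave 0.09. None of 15 blood endothelium genes was called. Of 11 nerve genes, 3 (27.3%, beside 2.92% of all genes) were DEGs higher in ULB (1 without ULB sample 2 or 7). The sum of the 11 was 149 to 264 TPM in RAD and 226 to 340 TPM in ULB. SOX10, the factor that defines Schwann cells, gave 0.55 and was not called. Among 13 smooth muscle genes, 3 (23.1%, beside 2.92% of all genes) were higher in ULB and 1 (7.69%, beside 1.40%) in RAD. ACTG2 and DES, an actin and desmin, were higher in ULB (log2 fold change -2.97, SE 0.45, adjusted p = 0.00034 and -2.75, SE 0.37, adjusted p = 0.00011), SYNPO2, an actin-binding protein, was higher in RAD (log2 fold change 1.15, SE 0.23, adjusted p = 0.0053), and the sums overlapped. The part of these cell types in the matrix and chemokine differences was not tested.

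Some genes of gland and surface epithelium were high in part of the ULB samples. CHIA, a chitinase, was at 97.1, 1.68, 37.4, 0.253 and 13.9 TPM in ULB samples 2, 5, 7, 9 and 12 and at most 1.11 TPM in RAD (log2 fold change -6.60, SE 0.96, adjusted p = 0.00023). SCGB1D1, a secretoglobin, LTF, lactotransferrin, and CLDN8 and CLDN3, claudins, all chosen after their values were seen, were also uneven among the ULB samples, with SCGB1D1 at 494, 0, 76.8, 1.16 and 34.7 TPM. LTF and CLDN8 were at most 0.857 TPM in ULB samples 5 and 9, while CLDN3 had a different order, at 11, 17.9, 0.821, 4.48 and 21.6 TPM. KRT7, a keratin of simple epithelium, was at 10.2, 1.16, 6.15, 0.434 and 3.0 TPM (log2 fold change -3.29, SE 0.60, adjusted p = 0.0022). The 8 genes of epidermis and skin glands in the table summed to 1.69 to 7.97 TPM in RAD and 4.27 to 16.5 TPM in ULB, with 6 of them below 0.5 TPM on average, and neither of the 2 tested was called. In RAD, sample 7 stood apart in mesothelial genes, with 537 TPM over 11 genes against a RAD median of 41.3 and 57.2 to 162 TPM in ULB, mostly from C3 at 502 TPM. Without RAD sample 7, 590 DEGs were called, 552 of them among the 594.

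In chromatin compartments, 17883 of 112824 autosomal bins (15.9%) differed between the depots, where limma's adjusted p was below 0.05 and the difference of mean index above 0.75. Of these, 8212 (7.28%) were higher in RAD and 9671 (8.57%) higher in ULB. The split of A-B index bins turned on single ULB samples, with 5735 and 11424 without sample 5, 9074 and 7174 without sample 2, and 8028 and 6409 without sample 7. Most called bins kept their compartment: 4851 had both means in A and 10437 both in B, while 1658 had the mean of RAD in A and of ULB in B, and 937 the reverse. The bins formed 3010 runs higher in RAD and 3196 higher in ULB, with a median length of 1 bin and the longest at 1520 kb and 1800 kb. Bins in opposite compartments in over 80% of the samples of each tissue (A/B switches) numbered 509 (0.451%), 305 (0.270%) in A in RAD and 204 (0.181%) in A in ULB, and the longest of these runs was 220 kb. When the index was quantile normalized, the 642 switches split the other way, 251 against 391, as did the 677 without ULB sample 5, 324 against 353. Without ULB sample 2 or 9 the number of A/B switches was 795 or 872. Over 80% of the ULB samples means every one of them, so leaving out a ULB sample can only add switches. By frequency, 2193 bins (1.94%) were in A in at least 70% of one tissue's samples and at most 30% of the other's, 1438 (1.27%) toward RAD and 755 (0.669%) toward ULB. After quantile normalization, compartment frequency changes numbered 1153 and 1129. Chromosome 10 held 337 of the 1438, including a run of 2640 kb with no gene start. Over this run samples disagreed within both tissues. RAD samples 11 and 12, which stood apart on this chromosome, were at -3.41 and -4.14, below every ULB sample, beside a RAD median of 2.53. ULB samples 2, 5, 7, 9 and 12 were at -2.43, -1.52, -0.842, 1.02 and -2.44.

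DEGs and called bins were then joined at gene starts. Of 586 tested genes that start in a bin higher in ULB, 74 (12.6%, 95% exact interval 10.0 to 15.6%) were DEGs higher in ULB and 5 were higher in RAD, beside 3.22% and 1.53% of all 10340 tested genes with a bin. Of 394 genes in bins higher in RAD, 17 (4.31%) were DEGs higher in RAD and 4 higher in ULB. The median of the log2 fold changes stood at -0.14 for the first group and 0.13 for the second. Seen from the genes, 22.2% of 333 DEGs higher in ULB started in a bin higher in ULB, where the share over all genes with a bin was 5.67%, and 10.8% of 158 DEGs higher in RAD started in a bin higher in RAD, against 3.81%. Neighbouring genes share bins and contacts, so these are counts without a test. The index came from the adipocyte layer and the RNA from whole tissue, so the cells behind them may differ.

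**Figure D4:**
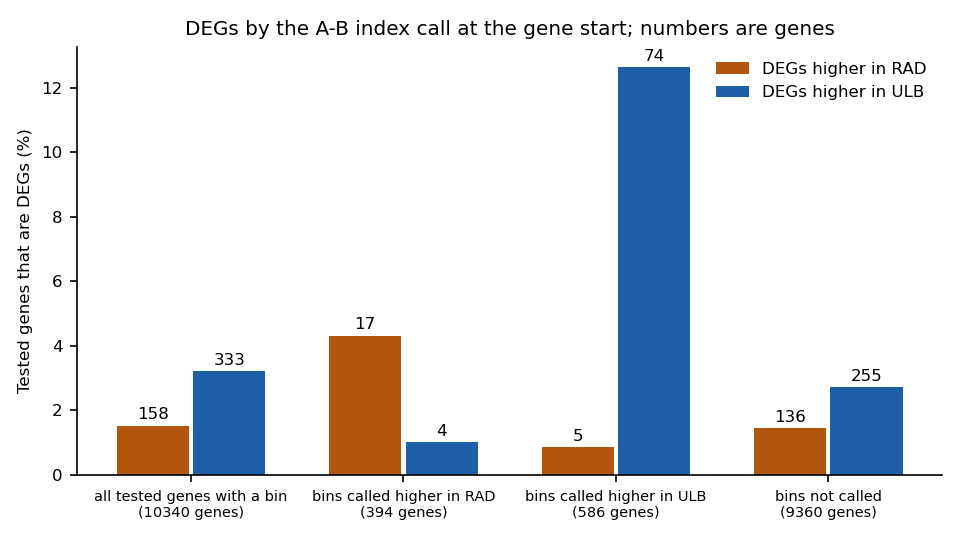
Share of tested genes (%) that were DEGs higher in RAD (orange) or ULB (blue), by the call of the 20-kb bin at the gene start, with the number of DEGs above each bar. The tallest bar is ULB DEGs in bins higher in ULB, 74 of 586 genes, and bins not called lie near the bars for all genes.

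Of 11 tested genes in A/B switch bins that were A in ULB, 5 were DEGs, all higher in ULB: POSTN, COL1A2, DCN, IRX5 and KCNE4, a potassium channel subunit named here after its values were seen. None of 15 tested genes in switch bins that were A in RAD was called by edgeR. The start of POSTN on chromosome 11 had an index of -1.38 ± 0.59 (SD, n = 12) in RAD and 0.61 ± 0.31 (SD, n = 5) in ULB, a difference of -2.0 (SE 0.27, adjusted p = 7.4e-05), with the bin in A in 0 of 12 RAD samples and 5 of 5 ULB samples. COL1A2 lies on chromosome 9 from 74174484 to 74210407, inside a run of switch bins at chr9:74060001-74240000. Over this run the index was -0.964 to -0.178 in the RAD samples, and 1.00, 0.567, 1.02, 0.331 and 0.886 in ULB samples 2, 5, 7, 9 and 12, so that the tissues did not overlap. On chromosome 5, a run of bins higher in ULB at chr5:91540001-91760000 holds the starts of DCN and LUM. Its index was between -1.69 and 0.325 in RAD and between 0.871 and 1.3 in ULB. DCN was a DEG and its neighbour LUM, encoding lumican, was not, at 202 ± 86.7 TPM (SD, n = 12) and 224 ± 84.7 TPM (SD, n = 5) (log2 fold change -0.09, adjusted p = 0.92). The index at KERA, further along the same chromosome, differed by -1.72 (SE 0.32, adjusted p = 0.00076). ABI3BP, a matrix protein gene in another run of switch bins toward ULB, had an index of -0.961 ± 0.338 (SD, n = 12) and 0.933 ± 0.569 (SD, n = 5) over the run, but its log2 fold change of -1.12 (adjusted p = 0.17) did not pass.

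Promoters of 3 genes of this group are shown because the index of their bins was negative in RAD and positive in ULB on average, and expression was higher in ULB. COL1A2 is at chr9:74174234-74174483 on the plus strand, KERA at chr5:91794067-91794316 on the plus strand and POSTN at chr11:13258974-13259223 on the minus strand, with capitals as above.
COL1A2: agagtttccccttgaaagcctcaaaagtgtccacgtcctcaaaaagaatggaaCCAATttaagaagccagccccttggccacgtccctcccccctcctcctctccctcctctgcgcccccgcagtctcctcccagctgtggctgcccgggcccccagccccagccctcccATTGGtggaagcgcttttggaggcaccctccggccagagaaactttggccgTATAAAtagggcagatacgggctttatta
KERA: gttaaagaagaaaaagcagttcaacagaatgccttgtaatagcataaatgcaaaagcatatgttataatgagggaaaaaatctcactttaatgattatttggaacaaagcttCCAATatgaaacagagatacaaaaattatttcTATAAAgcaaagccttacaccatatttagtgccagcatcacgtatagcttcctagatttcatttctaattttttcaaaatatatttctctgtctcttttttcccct
POSTN: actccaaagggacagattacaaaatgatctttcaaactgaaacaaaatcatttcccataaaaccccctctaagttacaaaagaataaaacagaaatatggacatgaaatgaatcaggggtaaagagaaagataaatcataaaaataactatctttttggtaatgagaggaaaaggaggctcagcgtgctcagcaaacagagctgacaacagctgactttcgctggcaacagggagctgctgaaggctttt
The COL1A2 window held 1 TATAAA and 2 CCAAT over both strands, the KERA window 1 of each, and the POSTN window held none of the 3 motifs. Their GC content was 58.8%, 30% and 38%, beside a median of 60% over all promoters.

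ZIC1 and ZIC4 start in the same bin of chromosome 13, in a run of bins called higher in ULB at chr13:87420001-88580000. The run stayed in B in both tissues on average, at -3.98 ± 0.469 (SD, n = 12) in RAD and -2.47 ± 0.388 (SD, n = 5) in ULB, without overlap. At the bin of the 2 starts the index was -2.35 ± 0.55 (SD, n = 12) in RAD and -0.08 ± 0.45 (SD, n = 5) in ULB, with A in 2 of 5 ULB samples and a difference of -2.27 (SE 0.27, adjusted p = 2.6e-05). The bins of IRX1, IRX2 and IRX5 also had a higher index in ULB, by -1.40 (adjusted p = 0.0028), -0.90 (adjusted p = 0.011) and -1.06 (adjusted p = 0.0032) as RAD minus ULB. EN1 was in A in all samples of both tissues and differed by -0.83 (adjusted p = 0.01). SFRP4, FGF10 and ADCY2, an adenylyl cyclase gene, were called in the same direction as their expression, with -1.28 (adjusted p = 0.00055), -1.48 (adjusted p = 0.003) and -1.86 (adjusted p = 3.5e-05). SEMA3E, a guidance ligand, differed by -1.91 (adjusted p = 0.00028) in the index and by -1.90 (SE 0.23, adjusted p = 4.6e-05) in expression.

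On the RAD side, ADAMTS16, a secreted metalloproteinase, was in A in 12 of 12 RAD samples and 1 of 5 ULB samples, with an index of 0.61 ± 0.40 (SD, n = 12) and -0.54 ± 0.56 (SD, n = 5). Its expression was 1.25, 2.28 and 4.99 TPM in RAD and 0.177, 0.0849, 0.0282, 0.282 and 0.806 TPM in ULB, without overlap (log2 fold change 3.32, SE 0.58, adjusted p = 0.0014). PDE10A, a cyclic nucleotide phosphodiesterase, had the same compartment counts, an index difference of 1.70 (adjusted p = 0.0018) and a log2 fold change of 1.57 (SE 0.27, adjusted p = 0.0013). WT1 had a difference of 0.81 (SE 0.27, adjusted p = 0.035) with means in B in both tissues. ALX1, PGR, GYS2 and HOXA9 were not in called bins, at -0.04 (adjusted p = 0.94), 0.82 (adjusted p = 0.074), 0.43 (adjusted p = 0.14) and 0.61 (adjusted p = 0.054). At CBR2, higher in RAD, the index was higher in ULB (index difference -0.75, adjusted p = 0.028). At CHIA, higher in ULB, the index was higher in RAD, the bin being in A in 12 of 12 RAD samples and 1 of 5 ULB samples. The longest switch run toward RAD, at chr4:108200001-108420000, holds the start of KCND3, a potassium channel gene too low to be tested, with 0.803 ± 0.401 TPM (SD, n = 12) in RAD and 0.425 ± 0.202 TPM (SD, n = 5) in ULB.

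**Figure D5:**
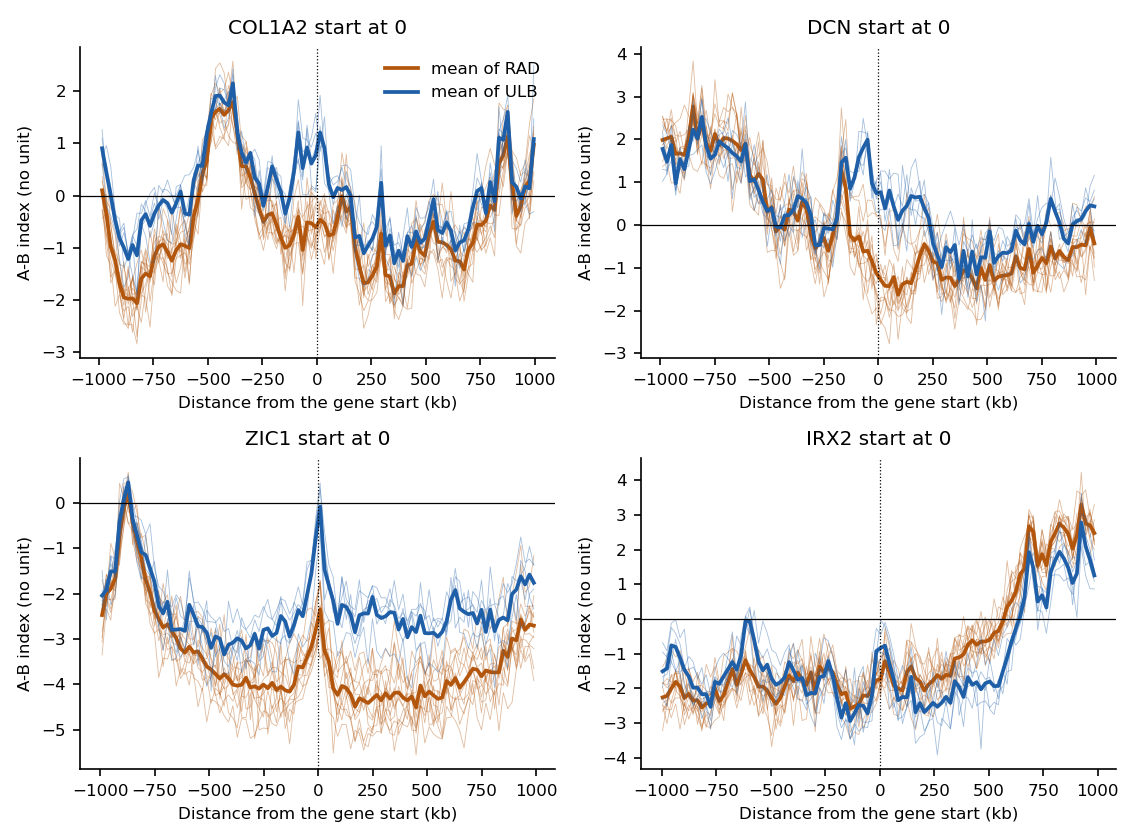
A-B index (no unit) in 20-kb bins by distance from the start of COL1A2, DCN, ZIC1 and IRX2 (kb), with thin lines for the 12 RAD and 5 ULB samples and thick lines for tissue means. Around COL1A2 and DCN the ULB mean is above 0 and the RAD mean below; around ZIC1 both are below 0, with ULB at -0.083 and RAD at -2.35 in the bin of the start.

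Boundaries of topologically associating domains (TADs), stretches with contacts mostly inside themselves, were compared by the number of samples that held them. There were 4877 to 5614 TADs per RAD sample and 5381 to 5689 per ULB sample. Of 9302 boundaries, 175 (1.88%) were held by at least 70% of one tissue's samples and under 30% of the other's, 43 (0.462%) toward RAD and 132 (1.42%) toward ULB. The number of TAD boundary frequency changes was 278 to 309 when any one ULB sample was left out, where 3 of the remaining 4 samples pass 70%. Of 182 tested genes that start within 100 kb of these, 9 (4.95%) were DEGs. This share is near the 4.32% of all genes tested, with or without a position, so genes near changed boundaries were called about as often as others. The 9 are listed by place only, and a link between boundary and expression was not tested. They were ABAT, CNTN3, COL1A2, GABRA2, IL34, MMP14, P3H2, PTGER2 and RBP7, of which IL34 was not called without ULB sample 5, 7, 9 or 12. The boundary by COL1A2, at the end of its switch run, was in 4 of 5 ULB and 2 of 12 RAD samples. One 54.1 kb from MMP14 was in 4 of 5 ULB and 0 of 12 RAD samples, and one 1.11 kb from CNTN3, a contactin, was in 5 of 5 and 2 of 12. GABRA2, a GABA receptor subunit, lay 5.16 kb from a boundary in 10 of 12 RAD and 1 of 5 ULB samples, and was at 3.71 ± 2.10 TPM (SD, n = 12) and 0.180 ± 0.231 TPM (SD, n = 5) (log2 fold change 4.35, SE 0.62, adjusted p = 0.0002). RBP7, a retinol binding protein of fat, was higher in RAD (log2 fold change 1.78, SE 0.37, adjusted p = 0.0061) beside a boundary held mostly by ULB, and P3H2 and PTGER2 were too (log2 fold change 0.81, SE 0.20, adjusted p = 0.026 and 0.82, SE 0.21, adjusted p = 0.032).

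Regions marked by H3K27ac, a histone acetylation of active enhancers, were given for reads pooled by tissue, from 2 RAD and 3 ULB libraries, so no test was possible. Most of the pooled ULB libraries carry replicate numbers that are not among the ULB samples compared here. The RAD table held 20732 regions, of which 74.2% overlapped a ULB region, and that of ULB held 19558, of which 80.4% overlapped a RAD region. Of 342 DEGs higher in ULB, 22 (6.43%, 95% exact interval 4.07 to 9.58%) had regions within 10 kb in the ULB table alone, beside 1.17% of 10699 tested genes with a position. The interval takes genes as independent, although neighbouring genes can share a region, so it is no test. Of 159 DEGs higher in RAD, 9 (5.66%) had regions in the RAD table alone, beside 2.16%. ZIC1, ZIC4, IRX1, IRX2, POSTN, THBS4, CLDN11 and DES had a region in ULB and none in RAD. The regions by THBS4 and CLDN11 were weak, ranked 19479 and 13966 of the 19558 in ULB. ALX1, PGR, CDH6 and FABP4 had regions in RAD and none in ULB. Of these FABP4 was not a DEG and CDH6, with a best rank of 13007 of the 20732 in RAD, was not called without ULB sample 2, 7, 9 or 12. One ULB region of 148 kb, 273rd by signal and called a super-enhancer, lay by both KERA and DCN. In RAD, the regions by DCN covered 77.6 kb with a best rank of 2548, and the region by KERA covered 1.8 kb with rank 16717. HOXA9 and HOXA10 shared a super-enhancer region in each tissue, of 98.6 kb in RAD and 83.0 kb in ULB.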

How the data were processed

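The authors quantified rRNA-depleted, stranded RNA-seq with kallisto 0.43.0 and deposited estimated counts per gene, and TPM scaled over PCGs and long noncoding transcripts together. The deposited A-B index is a score per 20-kb bin, computed by the authors from Knight-Ruiz balanced contact matrices that were quantile normalized between samples, from read pairs with a mapping quality of 30 or more. TADs of at least 100 kb were taken from the files of each sample. The deposited H3K27ac signal of stitched regions came from reads pooled by tissue, aligned with BWA 0.7.15 per the submitters' notes, and was used by rank and overlap. The 9 columns of these groups' tables that match no sample in the labels (7 of ULB, 2 of another fat) were not used.

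Estimated counts were rounded and tested in edgeR 4.0.16 (R 4.3.3; quasi-likelihood F-test, TMM factors) over genes above 0.5 TPM in 80% of the samples of a tissue, with Benjamini-Hochberg adjustment. The SE is the absolute log2 fold change over the root of F. The index was tested per bin in limma 3.58.1, leaving out 474 of 113298 bins that were 0 in a sample. Both fits were tested on simulated data first. Symbols came from the Ensembl identifiers (14821 of 21280 genes) and positions from RefSeq on Sscrofa11.1 by symbol (13517 genes). Sequences are from RefSeq. Some genes and sequences are not reported here. TAD boundaries within 100 kb were joined. Libraries were split into sets at 88% of TPM on PCGs.

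Named genes were the 12 DEGs furthest in each direction with a mean of at least 5 TPM, no overlap and a call with the library set as a term; up to 4 DEGs per direction in each list, or the 2 highest genes of a list without DEGs; the 6 DEGs with the largest index difference in each direction; and the HOX genes tested, EN1, TCF21, WT1, IRX3, PPARG, LEP and ADIPOQ. Members and lists were chosen with earlier results of these data known. Other genes with values were named after their values were seen, among them SCGB1D1, LTF, CLDN3, CLDN8, LUM, ABI3BP, KCND3, KCNE4, COL1A1, ELN, MMP14, FASN, THRSP, FABP4, LPL, C3, GABRA2, CNTN3, RBP7, P3H2, PTGER2, ESR1, PROX1 and SOX10. Of 765 genes in the lists, 544 were tested, 122 were below the filter and 98 symbols were not matched. The alternatives tried were other size factors, DESeq2 1.42.0, the exact test of edgeR, no filter, limma on log2(TPM + 1) and log2(TPM + 0.1), other thresholds and overlaps, quantile normalization of the index, the replicate block, equal numbers of samples, library sets and left-out samples. Those without RAD 7, without RAD 11 and 12 and without chromosome 10 were chosen after seeing the data, as were the settings of the index applied to the genes in called bins. Intervals are exact binomial (Clopper-Pearson) and cover counting error only.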

Additional observations from a re-analysis of the deposited data

Results flagged for a closer look

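In 9 of 140 named genes, 1 of the 5 ULB samples lay far from the others, with a gap to its nearest neighbour above 0.71 of the range of the group (Dixon's 95% limit for 5 values). Chance gives about 1 such gene in 20. The gap was 1.00 of the range in HOXC10, 0.865 in RBP4, 0.786 in HOXA2, 0.779 in CD74, 0.772 in MYLK, 0.757 in CLDN11, 0.734 in ALDH1A2, 0.724 in ALDH1A3 and 0.717 in HOXD4. RBP4 in ULB samples 2, 5, 7, 9 and 12 was at 29.7, 38.6, 34.4, 30.3 and 95.8 TPM, and CLDN11 was at 3.31, 17.2, 2.23, 3.45 and 5.87 TPM.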

How the results depend on the processing

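No expression or index difference of a named gene that passed its test changed sign under the alternatives run, while the split of A-B index bins and A/B switches between tissues did turn, as given above. The number of DEGs was 349 to 536 when each ULB sample was left out, 203 within the high and 144 within the low library set, and 228 with equal numbers of samples. It was 852 with DESeq2, 348 of them higher in RAD, 778 with the exact test and 590 without RAD sample 7. The number of A-B index bins was 6707 with equal numbers of samples, 9268 at an adjusted p below 0.01 and 14437 to 17159 without each ULB sample. A/B switches numbered 281 with equal numbers of samples and 572 to 872 without each ULB sample. The switch limit asks for every ULB sample, so leaving out a ULB sample can only raise this number. TAD boundary frequency changes numbered 278 to 309 in the left-out fits. The expression of genes in called bins, as the percentage of genes in bins higher in ULB that were DEGs higher in ULB, was 17.3% with quantile normalization, 27.3% with equal numbers, 9.96% without RAD samples 11 and 12, and 10.6 to 15.6% without each ULB sample. Of 90 named DEGs, 28 kept their call under every alternative and 65 without each ULB sample. The causes were not tested.

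Replicate numbers are shared between tissues, but same-numbered samples deviated together above r = 0.1 in only 3 of 5 pairs in expression and 4 of 5 in the A-B index, and 1 of 5 correlated best with its own number in each. With the replicate block, 259 DEGs (228 of them among the 594), 9539 A-B index bins and 19.7% for the expression of genes in called bins were found. Fewer ULB than RAD samples, and library sets that differ in depth, limit what low genes can show.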
